A study of Mus musculus with 8 samples.

Results

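Expression of 10 genes of heart muscle and heart development was followed across the 4 genotypes of the study: Nppa, Myl7, Tnnt2, Myh6 and Myh7, which encode a secreted hormone and parts of the contractile apparatus, and Nkx2-5, Gata4, Tbx5, Tbx20 and Hand2, which encode transcription factors. They were chosen by name, through the Ensembl gene ID of each row, and are 10 of the 29639 rows of the mRNA table. All 10 were found, and 9 passed the filter on low values (1 FPKM or more in at least 2 columns; FPKM is a level scaled to transcript length and library size). Nkx2-5 did not pass and is given by its values.

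The animals carried 3 polyadenylation cassettes, which end a transcript early, in the promoter of Gtl2 (also called Meg3). Gtl2 opens the row of non-coding genes that are active on the mother's chromosome in the imprinted Dlk1-Dio3 domain. PKI embryos had inherited the insertion paternally, MKI embryos maternally and HOMO embryos on both copies, and wild-type embryos (WT) carried none. The design text places all embryos at day 12.5 of gestation, as do the sample titles of WT, while those of PKI, MKI and HOMO each name a day that is a fraction of a day later. Each RNA sample was made from whole embryo, so the heart is a small share of what was measured, and the sources used here do not give strain, sex or litter.

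The labels list 8 libraries, 2 per genotype, but the mRNA and microRNA tables each hold 1 column per genotype. No spread between replicates can be computed, no difference between genotypes below has a replicate check, and no p-value is given for an mRNA. The sources used here do not say whether a column is 1 library or a combination, and the read depth of the mRNA columns is unknown. As a check on the labels, microRNAs of the Dlk1-Dio3 domain held 12.4% of microRNA reads in PKI, 0.407% in MKI, 0.424% in HOMO and 13.7% in WT. The MKI mRNA column stood apart: its correlation with the other 3 columns over 13279 genes was 0.864 to 0.882, against 0.961 to 0.975 among PKI, HOMO and WT (Pearson, log2 scale, across genes). The genes Ddx3y, Eif2s3y, Kdm5d and Uty of the Y chromosome lay at 7.12 to 29.7 FPKM in the PKI, MKI and HOMO columns and at 0 in the WT column, so the sex of the embryos and the genotype cannot be told apart in comparisons with WT.

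In the mouse embryo the heart muscle cells of all chambers share a contractile apparatus in which myosin motors pull on thin filaments, and troponin on the thin filament makes the pull depend on calcium. Atrial and ventricular cells differ in the myosin chains they use. NKX2-5, GATA4, TBX5, TBX20 and HAND2 bind DNA together in several combinations and turn on genes such as Nppa. All 5 factor genes are also active outside the heart. In RNA from whole embryos, fewer cells of a type and less RNA per cell cannot be told apart.

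The promoters of the hormone gene Nppa and of the myosin gene Myl7 are shown because these genes had the largest positive differences from WT among the 10 in PKI. Each is the 250 bases before the gene's start in RefSeq (GRCm38.p6), read 5′ to 3′ on the gene's strand, at chr4:148000472-148000721 on the plus strand for Nppa and at chr11:5898783-5899032 on the minus strand for Myl7. Capitals mark motif matches.
Nppa promoter: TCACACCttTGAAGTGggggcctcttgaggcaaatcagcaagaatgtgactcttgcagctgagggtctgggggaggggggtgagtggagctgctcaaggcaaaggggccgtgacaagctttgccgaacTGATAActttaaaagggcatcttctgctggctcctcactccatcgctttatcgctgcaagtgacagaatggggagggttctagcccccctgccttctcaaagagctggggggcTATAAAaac
Myl7 promoter: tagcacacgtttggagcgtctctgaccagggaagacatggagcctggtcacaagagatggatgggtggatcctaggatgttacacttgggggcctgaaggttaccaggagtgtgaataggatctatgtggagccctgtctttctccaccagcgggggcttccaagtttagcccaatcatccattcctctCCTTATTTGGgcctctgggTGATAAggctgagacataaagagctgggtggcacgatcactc
From its 5′ end, the Nppa stretch holds a T-box match, an NKX2-5 match, a GATA match and, close to the start, a TATA match. The Myl7 stretch holds a CArG match, the letters bound by serum response factor, followed by a GATA match.

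Promoters in the same table were found for 8 of the 10 genes; Gata4 and Tbx5 were not matched. The table takes the start of a transcript, which for Myh6, Nkx2-5, Tnnt2 and 1 of the 2 Myh7 windows lies inside the gene span given below, so those windows overlap the span. A GATA motif (AGATAA or AGATAG or TGATAA or TGATAG, either strand) was present in windows of 5 of the 8, those of Hand2, Myh6, Myl7, Nppa and Tnnt2, and in 26.5% of 32851 RefSeq promoter windows of the same length. The NKX2-5 motif (TNAAGTG, either strand) was present before Myh7 and Nppa and in 10.1% of all windows. The T-box motif (GGTGTGA, either strand) was found before Nppa and in 3.33% of windows, and the HAND motif (CATCTG, either strand) before Hand2 and in 14.4%. The CArG motif, searched on either strand, was found before Myl7 and in 1.47% of windows, and the MEF2 motif was found before none of the 8 and in 0.508%. TATAAA, searched on the gene's strand only, was found before Nppa and in 7.59%. The motif matches in these windows did not overlap one another. A match says only that these letters are there.

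The structural genes were together highest in the paternal knock-in and lowest in the maternal one. Their summed level was 86.7 FPKM in PKI, 47.0 FPKM in MKI, 52.7 FPKM in HOMO and 73.5 FPKM in WT. The summed level of the transcription factors was 14.7 FPKM in PKI, 7.40 FPKM in MKI, 12.67 FPKM in HOMO and 14.4 FPKM in WT. Of the 10 genes, 6 had their highest value in PKI and 4 in WT, and the lowest value lay in MKI for 7, in PKI for 2 and in HOMO for 1.

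**Figure D1:**
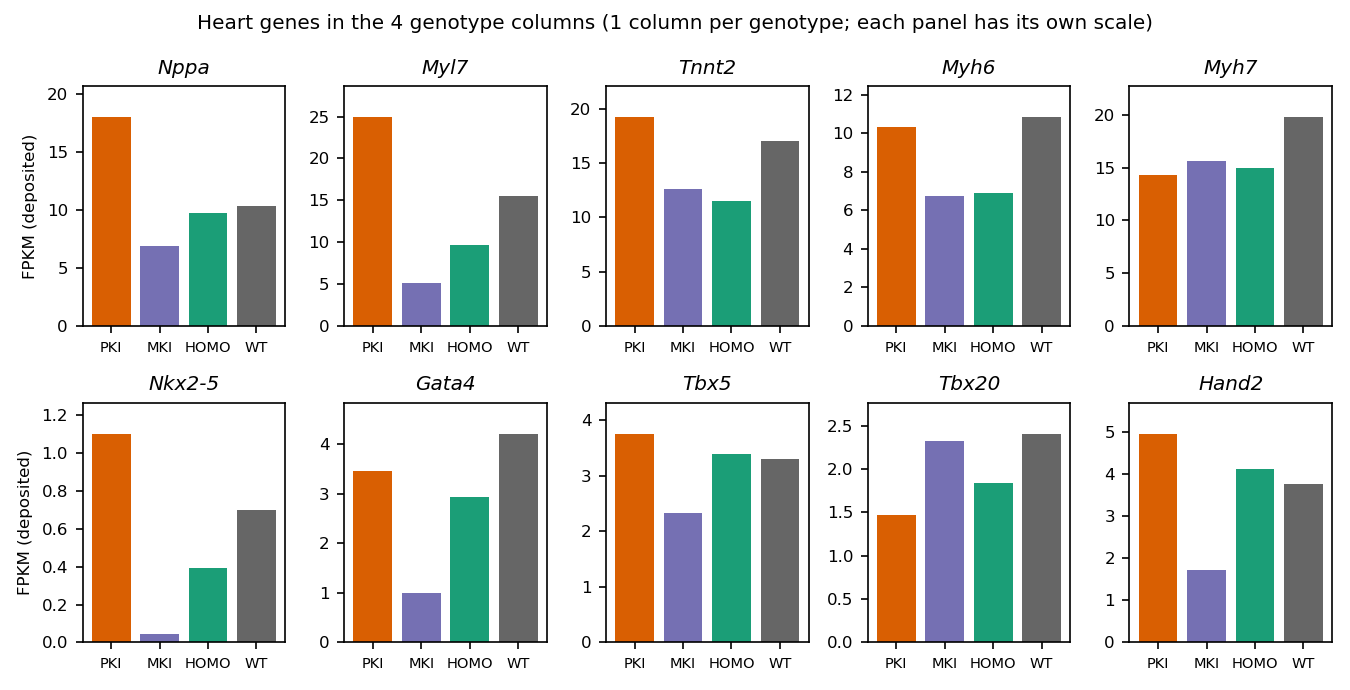
Deposited FPKM of the 10 heart genes, 1 panel per gene with its own vertical scale starting at 0, and 1 bar per genotype column (PKI, MKI, HOMO, WT). There are no replicates and no error bars; Myl7 stands between 5.11 FPKM in MKI and 24.9 FPKM in PKI, while Myh7 stays between 14.3 and 19.8 FPKM.

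Nppa (ENSMUSG00000041616, chr4:148000722-148002074, as for all genes below by RefSeq on GRCm38.p6) encodes atrial natriuretic peptide, a hormone that lowers blood pressure and that marks atria and the inner wall of the embryonic ventricles. Its level was 18.0 FPKM in PKI, 6.88 FPKM in MKI, 9.73 FPKM in HOMO and 10.3 FPKM in WT. PKI was thus 1.74 times WT, and HOMO lay close to WT. On the log2(FPKM + 0.5) scale, used for all differences below and compressing those of low genes, the difference from WT was 0.77 for PKI, -0.55 for MKI and -0.08 for HOMO.

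Myl7 (ENSMUSG00000020469, chr11:5896637-5898782) encodes the atrial regulatory light chain of myosin. It had 24.9 FPKM in PKI, 5.11 FPKM in MKI, 9.67 FPKM in HOMO and 15.5 FPKM in WT. Among the 9 genes tested its range over the columns was the widest, 4.88 times between PKI and MKI. Differences from WT were 0.67 for PKI, -1.51 for MKI and -0.66 for HOMO.

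Tnnt2 (ENSMUSG00000026414, chr1:135836315-135852268) encodes cardiac troponin T, which ties the calcium switch to the thin filament and is also made in embryonic skeletal muscle. It had 19.2 FPKM in PKI, 12.603 FPKM in MKI, 11.5 FPKM in HOMO and 17.0 FPKM in WT. The columns with the maternal insertion, MKI and HOMO, were both below those without it. Differences from WT were 0.17 for PKI, -0.42 for MKI and -0.55 for HOMO.

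Myh6 (ENSMUSG00000040752, chr14:54941921-54968017) encodes the fast alpha heavy chain of cardiac myosin, and Myh7 (ENSMUSG00000053093, chr14:54970684-54994626) the slow beta chain, the main one of the embryonic mouse ventricle and also present in slow skeletal muscle. They are neighbours and close copies, so reads could be split between them and their separate levels are uncertain. Myh6 had 10.3 FPKM in PKI, 6.74 FPKM in MKI, 6.89 FPKM in HOMO and 10.8 FPKM in WT, again lower in both columns with the maternal insertion. Myh7 had 14.3 FPKM in PKI, 15.6 FPKM in MKI, 14.9 FPKM in HOMO and 19.8 FPKM in WT, so that all 3 knock-in columns lay close together and below WT. The differences of Myh6 from WT were -0.07 for PKI, -0.64 for MKI and -0.62 for HOMO; the sign in PKI turned under quantile normalization and TMM scaling (0.01 and 0.003). Those of Myh7 were -0.45 for PKI, -0.33 for MKI and -0.39 for HOMO.

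Nkx2-5 (ENSMUSG00000015579, chr17:26838664-26844988) encodes the homeodomain factor that marks early heart muscle precursors. It was the lowest of the 10 in every column, with 1.10 FPKM in PKI, 0.0438 FPKM in MKI, 0.390 FPKM in HOMO and 0.700 FPKM in WT. Only in PKI did it reach 1 FPKM.

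Gata4 (ENSMUSG00000021944, chr14:63198914-63271712) encodes a zinc finger factor needed for folding of the heart tube, and is also active in gut, gonad and mesothelium. It had 3.46 FPKM in PKI, 1.00 FPKM in MKI, 2.93 FPKM in HOMO and 4.21 FPKM in WT. MKI was the column apart, with WT 4.21 times as high, and the differences from WT were -0.25 for PKI, -1.65 for MKI and -0.46 for HOMO.

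Tbx5 (ENSMUSG00000018263, chr5:119796514-119885220) encodes a T-box factor of the atria, the left ventricle and the forelimb. Its levels were 3.76 FPKM in PKI, 2.33 FPKM in MKI, 3.39 FPKM in HOMO and 3.31 FPKM in WT. Differences from WT were 0.16 for PKI, -0.43 for MKI and 0.03 for HOMO; the sign in MKI turned under quantile normalization (0.02). Tbx20 (ENSMUSG00000031965, chr9:24720812-24774303), another T-box gene of heart muscle and valves that is also active in cranial motor neurons, was the one factor gene lowest in PKI. Its levels were 1.47 FPKM in PKI, 2.32 FPKM in MKI, 1.84 FPKM in HOMO and 2.41 FPKM in WT. Differences of Tbx20 from WT were -0.56 for PKI, -0.04 for MKI and -0.31 for HOMO; the value in MKI was 0.41 under quantile normalization and 0.08 under TMM scaling.

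Hand2 (ENSMUSG00000038193, chr8:57320983-57324517) encodes a basic helix-loop-helix factor of the right ventricle, the sympathetic neurons and the limb bud. It had 4.95 FPKM in PKI, 1.71 FPKM in MKI, 4.12 FPKM in HOMO and 3.76 FPKM in WT. Its order of columns was that of the sum of the factors except that HOMO lay above WT. Differences from WT were 0.35 for PKI, -0.95 for MKI and 0.11 for HOMO.

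The order of the structural genes within a column also differed. In PKI Myl7 was the highest of the 10, followed by Tnnt2, Nppa, Myh7 and Myh6. In MKI, HOMO and WT Myh7 led and Tnnt2 followed; Myl7 had rank 5 in MKI, rank 4 in HOMO and rank 3 in WT. With 1 column per genotype, which neighbours in these orders differ beyond their spread could not be determined.

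With the insertion from the father alone, none of the 9 genes tested was past 2-fold from WT in either direction, where 0.700% of all 13279 genes were past 2-fold higher and 1.45% past 2-fold lower. Of the 9, 5 lay above WT and 4 below, where 59.5% of all genes lay below. Their median difference was 0.16, against -0.07 over all genes tested. Nppa and Myl7 lay near the top of the ranking of differences: 98.6% of genes tested lay below Nppa and 97.8% below Myl7.

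With the insertion from the mother alone, all 9 genes tested lay below WT on the deposited scale, as did 55.4% of all genes. However, Tbx5 and Tbx20 lay above WT under quantile normalization, Tbx20 under the other scalings and Nppa once centred on genes of like span. The 9 had a median of -0.55 against -0.11 over all genes. Myl7 and Gata4 were past 2-fold lower, 2 of 9, where 19.1% of all genes were past 2-fold lower and 1.22% past 2-fold higher. That share is near the background, and Myl7 was short of 2-fold, at -0.66, once centred on genes of like span. Of all genes tested, 7.84% lay below Myl7 and 5.94% below Gata4. The other 7 stood between 20.5% and 53.2% from the bottom.

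With the insertion from both parents, 7 of the 9 genes lay below WT, as did 61.5% of all genes. None of the 9 was past 2-fold, where 0.670% of all genes were past 2-fold higher and 0.783% past 2-fold lower. The structural genes lay below WT in 5 of 5, with a median of -0.55 against -0.06 over all genes. The HOMO and WT columns were the most alike of the 6 pairs, so these differences ranked low: 2.28% of genes lay below Myl7, 2.74% below Myh6, 3.81% below Tnnt2 and 8.16% below Myh7. Nppa was within the bulk, with 46.3% of genes below it. The transcription factors were split, with Gata4 at -0.46 and Tbx20 at -0.31, against 0.03 for Tbx5 and 0.11 for Hand2.

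**Figure D2:**
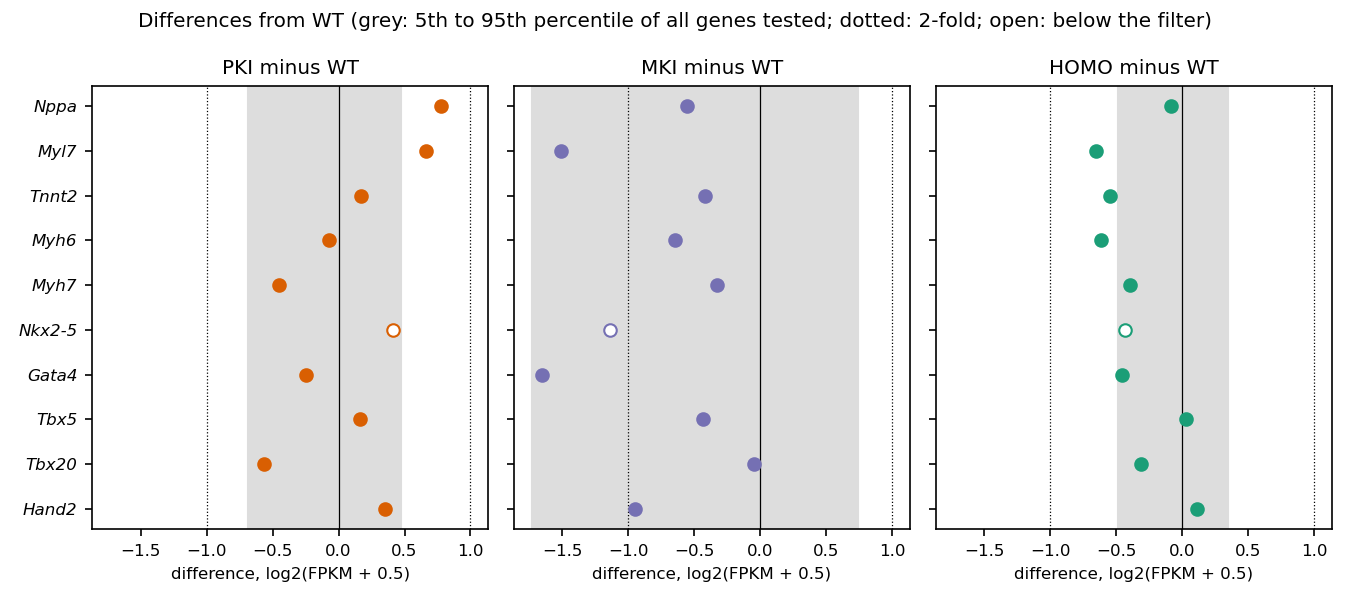
Differences of the 10 heart genes from WT on the log2(FPKM + 0.5) scale (horizontal axis) in PKI, MKI and HOMO; the grey band spans the 5th to 95th percentile of 13279 genes, dotted lines mark 2-fold, and the open circle is Nkx2-5, which did not pass the filter. Myl7 lies at 0.67 in PKI, -1.51 in MKI and -0.66 in HOMO, and the band is widest in MKI (-1.73 to 0.74).

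The comparisons of one parental insertion were made on both backgrounds with pairs that share no column. For the maternal insertion, MKI against WT and HOMO against PKI were set side by side. In HOMO against PKI, 7 of 9 genes lay lower, as did 48.9% of all genes. The 9 had a median of -0.24 against 0.01 over all genes. One of the 9, Myl7, was past 2-fold lower, where 1.32% of all genes were past 2-fold lower and 1.55% past 2-fold higher. Myl7 differed by -1.51 in MKI against WT and by -1.32 in HOMO against PKI. Nppa differed by -0.55 and -0.86 in the same order, Tnnt2 by -0.42 and -0.71, and Myh6 by -0.64 and -0.55. The structural genes other than Myh7 were thus lower with the maternal insertion on both backgrounds on the deposited scale. The share of all genes lower in both pairs was not computed, so this agreement has no background to be read against. Centring on genes of like span put Nppa at 0.30 in MKI against WT. Myh7 was at -0.33 and 0.06. Of the factors, Gata4 was at -1.65 in MKI against WT and -0.21 in HOMO against PKI, and Hand2 at -0.95 and -0.24. Tbx5 was at -0.43 and -0.13, and Tbx20 at -0.04 and 0.25. Nkx2-5, below the filter, was at -1.14 and -0.85.

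For the paternal insertion, PKI against WT and HOMO against MKI share no column. In HOMO against MKI, 6 of 9 genes lay higher, as did 6955 of all 13279. The 9 had a median of 0.46 against 0.06 over all genes. The median of the members was 0.029 with a filter of 5 FPKM, 0.10 under quantile normalization and -0.025 with centring on genes of like span. Gata4 (1.19) and Hand2 (1.06) were past 2-fold higher, 2 of 9, where 19.7% of all genes were past 2-fold higher and 3.64% past 2-fold lower. The 2 calls became 0 with a pseudocount of 1, a filter of 5 FPKM or quantile normalization, and 1 with TMM scaling, equal column sums or centring. Nppa was at 0.77 in PKI against WT and 0.47 in HOMO against MKI, and Myl7 at 0.67 and 0.86. Hand2 was at 0.35 and 1.06, and Tbx5 at 0.16 and 0.46. These 4 genes and Nkx2-5 (0.42 and 0.71) thus lay higher with the paternal insertion on both backgrounds on the deposited scale. The share of all genes higher in both pairs was not computed either. In HOMO against MKI, the median of genes of like span was 0.80 for Nppa and Myl7, 0.74 for Hand2, 0.68 for Nkx2-5 and -0.28 for Tbx5. Myl7 and Nkx2-5 therefore lay close to the median of genes of like span there, and the same centring put Nppa at -0.33. Myh7 (-0.45 and -0.06) and Tbx20 (-0.56 and -0.27) lay lower on both. Tnnt2 was at 0.17 and -0.13, Myh6 at -0.07 and 0.03, and Gata4 at -0.25 and 1.19. The value of Myh6 in HOMO against MKI was -0.22 under quantile normalization, -0.05 under TMM scaling, -0.12 with columns brought to the same sum and -0.03 with centring.

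Set directly against each other, MKI was lower than PKI for 7 of 9 genes and for 51.8% of all genes. The 9 had a median of -0.59 against -0.04 over all genes. Nppa (-1.33), Myl7 (-2.18), Gata4 (-1.40) and Hand2 (-1.30) were past 2-fold lower, 4 of 9, where 16.6% of all genes were past 2-fold lower and 2.55% past 2-fold higher. Centred on genes of like span, Nppa was at -0.41 and Hand2 at -0.60, short of 2-fold, and Hand2 was at -0.97 under quantile normalization. Myh7 and Tbx20 lay higher, by 0.12 and 0.52.

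Differences from WT went with the length of genes. Gene span here is the distance between the RefSeq start and end of a gene, known for 12333 of the genes tested. Across these genes Spearman's rho between span and difference from WT was -0.28 for PKI, 0.34 for MKI and -0.15 for HOMO, as a description over genes that share the same columns. Nppa spans 1353 bases, Myl7 2146, Hand2 3535 and Nkx2-5 6325, all under the median of 24999 bases, and Gata4 spans 72799 bases and Tbx5 88707. Among 617 genes spanning 374 to 2999 bases, the median difference from WT was 0.13 for PKI, -0.85 for MKI and -0.02 for HOMO, and 42.5% of them were past 2-fold lower in MKI.

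Relative to the median of genes of like span, Nppa was at 0.65 and Myl7 at 0.54 in PKI, nearly as far above as on the deposited scale. In MKI the same centring put Nppa at 0.30, so its sign turned, and Myl7 at -0.66, short of 2-fold. Hand2 moved to -0.28 in MKI, while Gata4, a long gene among genes that were higher in MKI, moved to -1.84. In HOMO it changed little: Myl7 was at -0.63, Myh6 at -0.55, Tnnt2 at -0.50 and Myh7 at -0.36. What part the span of a gene has in these differences beyond this centring was not tested.

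**Figure D3:**
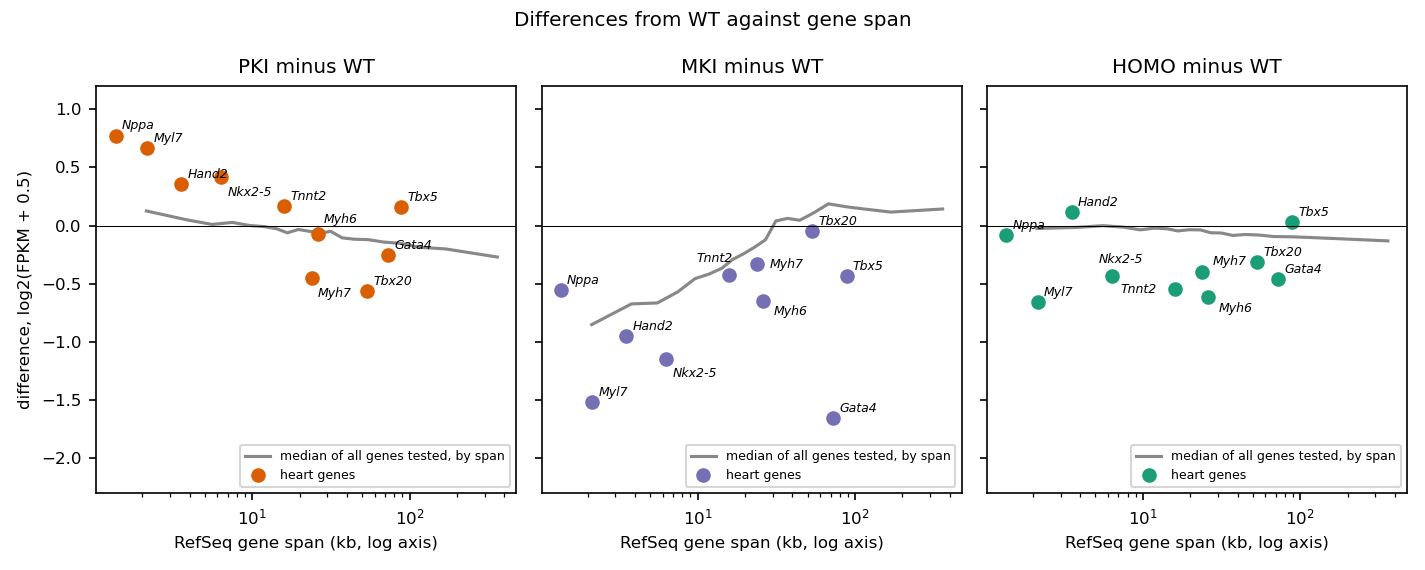
Difference from WT on the log2(FPKM + 0.5) scale (vertical axis) against RefSeq gene span in kilobases (horizontal, log axis) for the 10 heart genes in PKI, MKI and HOMO; the grey line joins the medians of 20 groups of genes tested. The line goes from -0.85 for the shortest genes to 0.14 for the longest in MKI, with Gata4 at -1.65 far below it, and from 0.13 to -0.27 in PKI.

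Ratios between heart genes of the same column do not change when a column is rescaled. Myh6 over Myh7 was 0.719 in PKI, 0.431 in MKI, 0.461 in HOMO and 0.547 in WT. Myl7 over Myl2, an atrial over a ventricular regulatory light chain, was 0.798 in PKI, 0.210 in MKI, 0.493 in HOMO and 0.769 in WT. Both ratios were highest in PKI and lowest in MKI. The other atrial and ventricular light chain genes, Myl4 and Myl3, differed from WT by -0.47 and -1.34 in MKI. For that pair the atrial over ventricular ratio in MKI was thus above that of WT, not below. Myl7 spans 2146 bases and Myl2 20750, and genes of like span had median differences of -0.85 and -0.24 in MKI. The part of span in these ratios was not tested.

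Relative to Tnnt2, a gene of all heart muscle cells, Myl7 was at 1.297 in PKI, 0.405 in MKI, 0.840 in HOMO and 0.911 in WT, and Nppa at 0.938 in PKI, 0.546 in MKI, 0.845 in HOMO and 0.607 in WT. Nkx2-5 over Tnnt2 had the same order of columns as Myl7 over Tnnt2, with 0.0573 in PKI, 0.00348 in MKI, 0.0339 in HOMO and 0.0411 in WT, and the other factor genes had other orders. Hand2 over Tnnt2 was 0.258 in PKI, 0.136 in MKI, 0.358 in HOMO and 0.221 in WT. Gata4 over Tnnt2 was 0.180 in PKI, 0.0794 in MKI, 0.255 in HOMO and 0.247 in WT. Tbx5 over Tnnt2 was highest in HOMO at 0.295, with 0.196 in PKI, 0.185 in MKI and 0.194 in WT. Tbx20 over Tnnt2 was lowest in PKI at 0.0764, with 0.184 in MKI, 0.160 in HOMO and 0.141 in WT.

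Another 99 heart genes were read from lists of atrial, ventricular, sarcomere, calcium, conduction, transcription factor, natriuretic peptide, epicardial and valve genes, of which 84 passed the filter. Their summed level was 1243 FPKM in PKI, 1224 FPKM in MKI, 1191 FPKM in HOMO and 1222 FPKM in WT. Against WT, 1 gene was past 2-fold higher and 1 was past 2-fold lower in PKI, 17 were past 2-fold lower and none higher in MKI, and 1 was lower and none higher in HOMO. The median difference was -0.06 in PKI, against -0.07 over all genes, -0.03 in MKI, against -0.11, and -0.09 in HOMO, against -0.06. The share lower in MKI, 20.2%, is near the 19.1% of all genes. The medians of the structural members in MKI and HOMO, both -0.55, were lower than those of the wider set; this difference was not tested, and centring on genes of like span put the structural median at -0.15 in MKI and -0.50 in HOMO. In HOMO against MKI 16 (19.05%) were past 2-fold higher and 3 (3.57%) lower, where 19.7% and 3.64% of all genes were. In HOMO against PKI 1 was higher and none lower, where 1.55% and 1.32% of all genes were. In MKI against PKI 1 was higher and 16 (19.05%) lower, where 2.55% and 16.6% of all genes were.

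**Figure D4:**
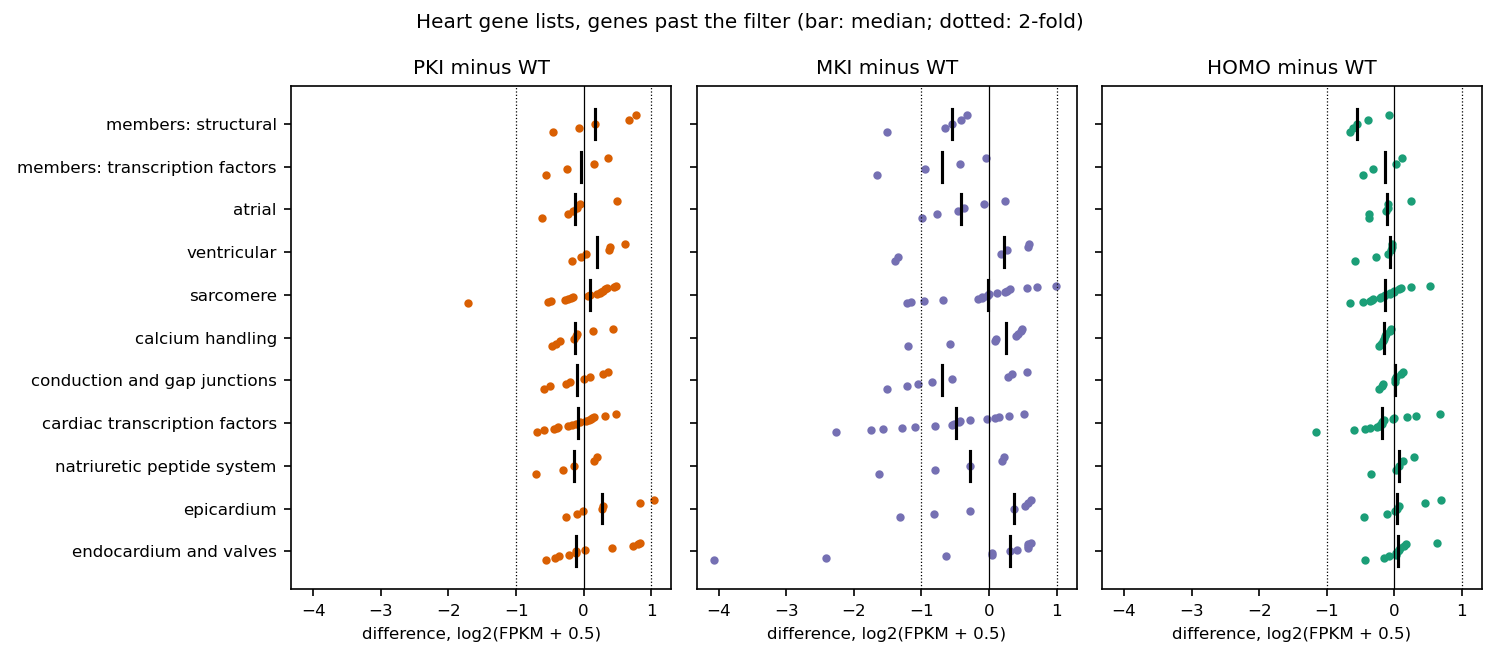
Differences from WT on the log2(FPKM + 0.5) scale (horizontal axis) in PKI, MKI and HOMO for every gene past the filter in the 2 groups of members and 9 lists of other heart genes (rows); short bars are medians and dotted lines mark 2-fold. The structural members have medians of 0.17, -0.55 and -0.55, and in MKI the points of most lists spread from past 2-fold lower to above WT.

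Among other atrial genes, 6 of 8 passed the filter and none was past 2-fold from WT. Myl4, the atrial essential light chain, had 49.9 FPKM in PKI, 25.5 FPKM in MKI, 32.4 FPKM in HOMO and 35.4 FPKM in WT, the same order of columns as Myl7 with its span of 41199 bases. Sln, which encodes a small inhibitor of the calcium pump, had 1.03 FPKM in PKI, 0.431 FPKM in MKI, 1.38 FPKM in HOMO and 1.09 FPKM in WT. Gja5, a gap junction gene, had 3.98 FPKM in PKI, 2.95 FPKM in MKI, 4.80 FPKM in HOMO and 6.35 FPKM in WT, and Nr2f2, a nuclear receptor that sets atrial identity, lay between 22.5 FPKM in HOMO and 29.4 FPKM in WT.

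Of the ventricular genes 6 of 8 passed, and 2 (33.3%), Lbh and Myl3, were past 2-fold lower in MKI, against 19.1% of all genes. Myl3, the ventricular essential light chain, had 14.7 FPKM in PKI, 4.15 FPKM in MKI, 10.6 FPKM in HOMO and 11.3 FPKM in WT. Myl2, the ventricular regulatory light chain, was lowest in HOMO, with 31.2 FPKM in PKI, 24.3 FPKM in MKI, 19.6 FPKM in HOMO and 20.2 FPKM in WT. Hey2, a repressor of atrial genes in the ventricle, had 5.04 FPKM in PKI, 5.88 FPKM in MKI, 3.59 FPKM in HOMO and 3.72 FPKM in WT. Lbh had 29.7 FPKM in PKI, 12.5 FPKM in MKI, 32.8 FPKM in HOMO and 33.4 FPKM in WT. All 6 ventricular genes lay below WT in HOMO on the deposited scale and 3 of 6 did under TMM scaling; their median was -0.07, against -0.06 over all genes, of which 61.5% lay below WT.

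Of the other sarcomere genes 17 of 20 passed, and 2 (11.8%) were past 2-fold lower in MKI, against 19.1% of all genes. They were Tnni1, the slow troponin I gene, at -1.21 and Des, which encodes the muscle intermediate filament desmin, at -1.15. Ttn, whose giant product spans the sarcomere, was the one gene past 2-fold lower in PKI, with 2.95 FPKM in PKI, 13.5 FPKM in MKI, 7.70 FPKM in HOMO and 10.8 FPKM in WT. Its span is 278578 bases, and its order of columns was nearly the reverse of that of Myl7. Smpx, a small muscle protein gene, had 3.18 FPKM in PKI, 4.88 FPKM in MKI, 1.67 FPKM in HOMO and 2.20 FPKM in WT.

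Of the calcium genes 8 of 10 passed, and 1 (12.5%) was past 2-fold lower in MKI, against 19.1% of all genes. It was Jph2, which encodes the junction protein that holds the cell's calcium store near its membrane, at -1.20. All 8 lay below WT in HOMO on the deposited scale, as did 61.5% of all genes, with a median of -0.15 against -0.06 over all genes; 6 of 8 did under TMM scaling. Cacna1c, the main calcium channel of the working heart, was at -0.57 in MKI, whereas Casq2, a calcium buffer of the store, was at 0.47 and Asph at 0.49. Of the conduction genes 8 of 11 passed, and 3 (37.5%) were past 2-fold lower in MKI, against 19.1% of all genes: Cacna1g (-1.50), Kcnh2 (-1.21) and Tbx2 (-1.05). Hcn4, the pacemaker channel gene, had 1.60 FPKM in PKI, 1.25 FPKM in MKI, 2.32 FPKM in HOMO and 2.65 FPKM in WT.

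Of the other cardiac transcription factors 16 of 17 passed, and 5 (31.25%) were past 2-fold lower in MKI, against 19.1% of all genes. Whether the shares of these lists differ from that of all genes was not tested. Irx5 had 9.64 FPKM in PKI, 1.41 FPKM in MKI, 7.59 FPKM in HOMO and 8.66 FPKM in WT. Irx3, Srf and Tbx1 were lower in MKI by the same measure (-1.56, -1.75 and -1.29), and so was Foxc2 (-1.09), the last named after its value was seen. Srf, which encodes the factor that binds CArG motifs, had 10.8 FPKM in PKI, 2.63 FPKM in MKI, 9.99 FPKM in HOMO and 10.01 FPKM in WT. The 1 heart gene past 2-fold lower in HOMO was Foxc1, also named after its value was seen, with 6.85 FPKM in PKI, 11.1 FPKM in MKI, 4.84 FPKM in HOMO and 11.4 FPKM in WT.

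The genes around the Nppa product gave no common direction. Furin, a protease that cuts many precursors and is known to act on natriuretic peptides, was at -1.62 in MKI. It was the 1 of 5 past 2-fold lower there, where 19.1% of all genes were. Npr1, the receptor for the Nppa hormone, had 1.26 FPKM in PKI, 0.754 FPKM in MKI, 2.17 FPKM in HOMO and 1.69 FPKM in WT. Npr2, the receptor for the related C-type peptide, had 7.43 FPKM in PKI, 10.1 FPKM in MKI, 13.6 FPKM in HOMO and 12.4 FPKM in WT, and Npr3, which clears these peptides, lay between 4.54 FPKM in HOMO and 6.80 FPKM in MKI.

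Of the epicardial genes 7 of 8 passed. Upk1b was the 1 heart gene past 2-fold higher in PKI, with 2.10 FPKM in PKI, 1.33 FPKM in MKI, 1.23 FPKM in HOMO and 0.764 FPKM in WT, and Krt19 had 5.57 FPKM in PKI, 4.74 FPKM in MKI, 4.99 FPKM in HOMO and 2.90 FPKM in WT. Both are also genes of other epithelia. Tcf21, a factor of epicardial cells, was at -1.32 in MKI. However, 4 of the 7 tested lay above WT there, as did 5925 of all 13279 genes, and the median of the list was 0.38. Msln, which did not pass the filter, was listed at 0 in MKI and at 0.0978 FPKM in WT. Of the valve genes all 11 passed, and Msx1 and Msx2, homeobox genes of valve mesenchyme and of limb and face, were listed at 0 in MKI. Msx1 had 13.4 FPKM in PKI, 12.5 FPKM in HOMO and 7.90 FPKM in WT, and Msx2 had 4.11 FPKM in PKI, 2.28 FPKM in HOMO and 2.15 FPKM in WT. Twist1, a factor of cushion mesenchyme and of much other mesenchyme, had 49.9 FPKM in PKI, 17.6 FPKM in MKI, 28.2 FPKM in HOMO and 27.7 FPKM in WT, whereas Has2, which makes the matrix of the cushions, was highest in MKI at 9.62 FPKM, with 6.15 FPKM in PKI, 5.40 FPKM in HOMO and 6.07 FPKM in WT.

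Skeletal muscle, the other source of Tnnt2 and Myh7, had a summed level over 20 genes of 138 FPKM in PKI, 137 FPKM in MKI, 164 FPKM in HOMO and 161 FPKM in WT. Of its genes, Myf6 was listed at 0 in HOMO, and the defining genes Myod1 and Myog were present in every column: Myog had 20.6 FPKM in PKI, 5.17 FPKM in MKI, 19.9 FPKM in HOMO and 20.5 FPKM in WT. In PKI 14 of the 17 that passed lay below WT, with a median of -0.37, where 59.5% of all genes did, with a median of -0.07. In HOMO 11 of 17 lay below WT, with a median of -0.06, where 61.5% of all genes did, also with a median of -0.06. None of the 17 was past 2-fold from WT in PKI or HOMO, and 4 (23.5%) were past 2-fold lower in MKI, where 19.1% of all genes were. The part of skeletal muscle in the levels of Tnnt2 and Myh7 was not tested.

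Genes that mark the sites outside the heart where the factor genes act were read beside them. The gut, gonad and mesothelium list, for Gata4, summed to 33.9 FPKM in PKI, 25.8 FPKM in MKI, 29.4 FPKM in HOMO and 36.8 FPKM in WT, and 3 of its 7 tested genes, Barx1 (-1.79), Foxa2 (-1.40) and Foxf1 (-1.08), were past 2-fold lower in MKI, as were Gata4 and 19.1% of all genes. Lhx9 (0.41) and Wt1 (0.38), the gonad and mesothelium genes of that list, lay above WT in MKI and were named after their values were seen. The limb, arch and sympathetic list, for Hand2, summed to 19.5 FPKM in PKI, 19.2 FPKM in MKI, 24.4 FPKM in HOMO and 20.3 FPKM in WT, with Phox2a listed at 0 in MKI. The forelimb and retina list, for Tbx5, summed to 24.8 FPKM in PKI, 15.5 FPKM in MKI, 24.3 FPKM in HOMO and 23.1 FPKM in WT, with Fgf8 listed at 0 in MKI. Its low value in MKI came from Pitx1, a hindlimb gene, which had 0.904 FPKM in MKI and 10.04 FPKM in WT. Without Pitx1 the other 5 summed to 12.83 FPKM in PKI, 14.6 FPKM in MKI, 13.9 FPKM in HOMO and 13.02 FPKM in WT. The cranial motor neuron list, for Tbx20, was lowest in PKI, like Tbx20 itself: 9.47 FPKM in PKI, 16.1 FPKM in MKI, 13.1 FPKM in HOMO and 15.2 FPKM in WT, with Hoxb1 listed at 0 in MKI. The part of these tissues in the levels of the 4 factor genes was not tested.

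Marker genes of liver and blood had wide ranges over the columns. Liver genes summed to 241 FPKM in PKI, 1199 FPKM in MKI, 844 FPKM in HOMO and 663 FPKM in WT over 8 genes, and red cell genes to 7756 FPKM in PKI, 5458 FPKM in MKI, 15456 FPKM in HOMO and 8986 FPKM in WT over 9. None of the 17 was listed at 0 in a column. Endothelial genes, of which the heart has its share, summed to 31.5 FPKM in PKI, 49.1 FPKM in MKI, 57.6 FPKM in HOMO and 49.9 FPKM in WT over 6. The part of these tissues in the heart values was not tested.

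The genes whose 4 values lay nearest to the mean pattern of the structural members, outside the muscle lists and by Euclidean distance of centred log2(FPKM + 0.5) over the 4 columns, were Fabp5, Tmem165, Amacr, Hoxd9 and Eci1, at distances of 0.04, 0.05, 0.06, 0.09 and 0.12. Fabp5, a fatty acid binding protein gene, had 95.1 FPKM in PKI, 51.0 FPKM in MKI, 58.6 FPKM in HOMO and 79.4 FPKM in WT. For the transcription factor members they were Lin37, Hoxa4, Isoc2a, Impa2 and Fxyd1, at 0.04 to 0.06. Hoxa4 had 3.11 FPKM in PKI, 1.55 FPKM in MKI, 2.61 FPKM in HOMO and 3.23 FPKM in WT.

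Introns of myosin genes carry microRNAs, small RNAs that repress messages matched by their seed, bases 2 to 8. By RefSeq positions on GRCm38.p6, Mir208a lies within Myh6 (chr14:54949060-54949142, minus strand), Mir208b within Myh7 (chr14:54975700-54975776, minus strand) and Mir499 within Myh7b (chr2:155622880-155622958, plus strand). The mature forms of the first pair are shown because they lie in members, and miR-499-5p because it lies in a related myosin gene; capitals mark the seed, which miR-208a-3p and miR-208b-3p share and which in miR-499-5p ends in another base.
miR-208a-3p: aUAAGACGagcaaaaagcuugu
miR-208b-3p: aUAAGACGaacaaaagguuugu
miR-499-5p: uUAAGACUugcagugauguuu
MicroRNA columns held 10072670 reads in PKI, 8638401 in MKI, 8016848 in HOMO and 8405962 in WT. Intervals below are exact at 95% and, like the tests on reads, cover counting error only: they compare these columns, not the genotypes. By an exact binomial test on reads with Benjamini-Hochberg adjustment over 505 microRNAs, 71.9% of all passed in PKI, 77.6% in MKI and 72.3% in HOMO, so passing is the rule at this depth.

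The microRNA of the alpha myosin gene, miR-208a-3p, had 37 reads in PKI (3.67 RPM, reads scaled to the library total), 63 in MKI (7.29 RPM), 26 in HOMO (3.24 RPM) and 35 in WT (4.16 RPM). Over all reads it stood at 175% of WT in MKI (interval 114 to 273%), where Myh6 itself was lower than in WT. The intervals in PKI (54.1 to 144%) and HOMO (45.0 to 133.2%) span 100%. Over reads outside the Dlk1-Dio3 domain miR-208a-3p stood at 152% in MKI. No interval was computed for that total. Its bounds would scale with the total as the estimate does, and the lower one would then fall just below 100%. At less than 10 RPM in every column, miR-208a-3p was also below the filter of the binomial test. The microRNA of the beta myosin gene, miR-208b-3p, had 128 reads in PKI (12.71 RPM), 140 in MKI (16.2 RPM), 150 in HOMO (18.7 RPM) and 150 in WT (17.8 RPM). It stood at 71.2% of WT in PKI (interval 55.8 to 90.8%), with Myh7 at 14.3 FPKM in PKI against 19.8 FPKM in WT. The intervals in MKI (71.6 to 115%) and HOMO (83.1 to 132%), likewise over all reads, span 100%. With reads of the domain left out of the total, PKI stood at 70.2% of WT, MKI at 78.7% and HOMO at 90.9%. Intervals for miR-208b-3p were not computed on that total, so whether MKI lies below WT beyond counting error depends on the total used. The number of miR-208a-3p reads for each miR-208b-3p read was 0.289 in PKI (interval 0.195 to 0.420), 0.450 in MKI (0.329 to 0.610), 0.173 in HOMO (0.110 to 0.264) and 0.233 in WT (0.157 to 0.339). This order, with MKI highest, is not that of Myh6 over Myh7, which was lowest in MKI.

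The remaining member of the group, miR-499-5p, had 113 RPM in PKI, 170 RPM in MKI, 182 RPM in HOMO and 157 RPM in WT. PKI stood at 72.0% of WT (interval 66.5 to 78.0%), MKI at 109% and HOMO at 116%. Its host Myh7b was low in the mRNA table, at 0.252 FPKM in PKI, 0.279 FPKM in MKI, 0.814 FPKM in HOMO and 0.514 FPKM in WT. With reads of the Dlk1-Dio3 domain left out of the total, since these were scarce in MKI and HOMO, miR-499-5p stood at 71.0% of WT for PKI, 94.3% for MKI and 101% for HOMO, and miR-208a-3p at 152% in MKI.

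Of the microRNAs of heart and skeletal muscle together, miR-1a-3p had 2918 RPM in PKI, 3023 RPM in MKI, 3218 RPM in HOMO and 2242 RPM in WT, which put PKI at 130% of WT, MKI at 135% and HOMO at 144%. Over reads outside the domain it stood at 128% of WT for PKI, 117% for MKI and 124% for HOMO. The reads of miR-133a-3p were at 133.4% of WT for PKI, 116% for MKI and 123% for HOMO, and over reads outside the domain at 132% for PKI, 100.2% for MKI and 106% for HOMO. The skeletal muscle microRNA miR-206-3p, with 3301 RPM in PKI, 3002 RPM in MKI, 3494 RPM in HOMO and 3068 RPM in WT, stood at 108% of WT for PKI, 97.9% for MKI and 114% for HOMO, and over reads outside the domain at 106% for PKI, 84.8% for MKI and 98.7% for HOMO. All 3 knock-in columns were thus above WT for miR-1a-3p on either total, while miR-499-5p and miR-208b-3p were lowest in PKI.

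**Figure D5:**
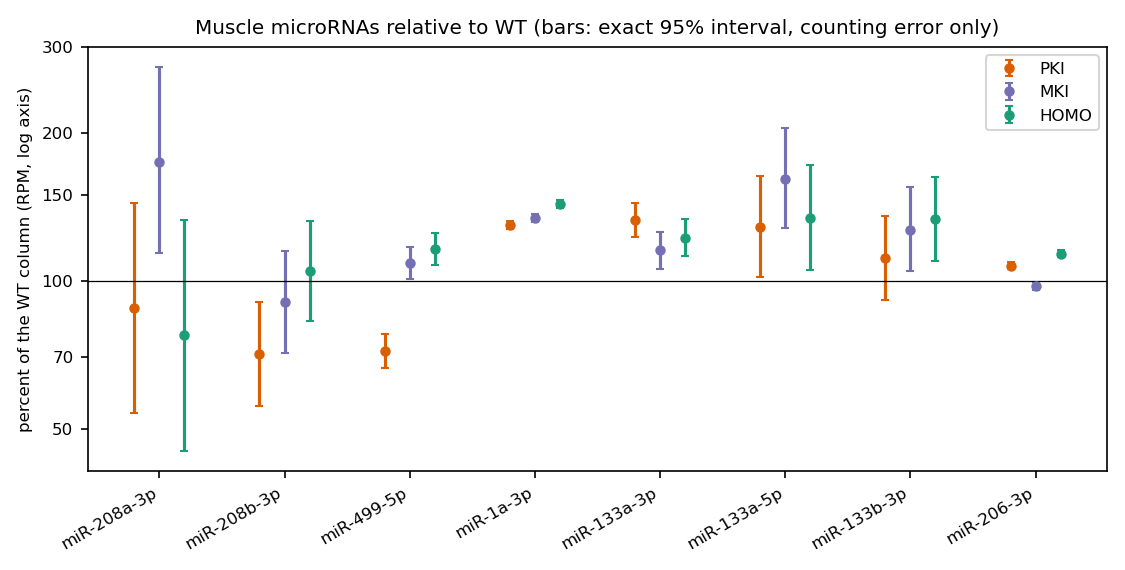
Level of 8 muscle microRNAs in PKI, MKI and HOMO as a percent of the WT column (vertical, log axis), with exact 95% intervals that cover counting error only. In PKI, miR-499-5p (72.0%) and miR-208b-3p (71.2%) lie below 100% with their whole intervals, and miR-1a-3p lies above 100% in all 3 columns.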

How the data were processed

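RNA from whole embryos was selected with oligo(dT) beads and read as strand-marked paired ends, per the labels' protocols. The submitters' processing notes name cutadapt 1.9, HISAT2 2.0.4 and StringTie 1.3.4d with GRCm38, and DESeq2 and edgeR without version or role. The mRNA values deposited by the authors were taken as FPKM: the headers name no unit, StringTie is the quantifier named, and column sums differ. The microRNA values deposited by the authors are RPM; 100% were multiples of 1 read within 0.02 read, so reads were recovered for 2395 small RNAs. The sources used here do not give the small RNA library method, and the long non-coding table was not used here.

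Of 29639 rows 22022 had an Ensembl ID with a symbol; 40 entries sharing 20 symbols were summed. Genes at 1 FPKM or more in at least 2 of the 4 columns were kept, 13279 in all. Differences are of log2(FPKM + 0.5); called means past 2-fold, because 1 column per genotype allows no test and the planned model with a column per library could not be fitted. For microRNAs at 10 RPM or more, ratios of reads have exact conditional intervals. Members and gene lists were chosen with earlier results of these data known. Named genes are all members, up to 4 genes per list with the largest absolute difference from WT in any knock-in column, the 5 genes nearest to each mean pattern, and microRNAs of the list with 10 or more reads in a column; exceptions are marked. Steps were tested on simulated data. Other settings tried were pseudocounts of 0.1 and 1, a filter of 5 FPKM or none, quantile normalization, TMM, equal column sums and reads outside the domain. Centring on genes of like span in 20 groups and the binomial test were added after seeing the data. Python 3.11.15, pandas 2.3.3, scipy 1.17.1 and statsmodels 0.14.6 were used.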

Additional observations from a re-analysis of the deposited data

Results flagged for a closer look

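Gata4 differed most between the backgrounds on which the paternal insertion could be read. It was at -0.25 in PKI against WT and at 1.19 in HOMO against MKI, on the log2(FPKM + 0.5) scale. These differences lie on opposite sides of 0 and are 1.44 apart. The pairs share no column, each genotype has 1 column, and the difference was not tested. Gata4 had 1.00 FPKM in the MKI column, the lowest of the 4, and 2.93 FPKM in HOMO, the next lowest. The maternal pairs, at -1.65 in MKI against WT and -0.21 in HOMO against PKI, hold the same 4 values and so the same gap. In HOMO against MKI 19.7% of all genes were past 2-fold higher. How many of all genes differ this much between backgrounds was not computed, so the gap cannot be called particular to Gata4.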

How the results depend on the processing

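No paired analysis was possible because the columns carry no replicate number, and for the same reason leaving out each replicate was not run. No member difference past 2-fold changed sign under the alternatives. The scalings shifted the median of all genes in MKI against WT by 0.25 (quantile), 0.14 (TMM) and 0.14 (equal column sums), and higher genes made up 30.7% of genes past 2-fold there under quantile normalization (6.01% as deposited) and 49.6% in PKI against WT (32.5% as deposited). Beside the main counts and medians of members, HOMO against MKI gave 0 past 2-fold with a pseudocount of 1, the 5 FPKM filter or quantile normalization and 1 with TMM, equal sums or span centring; its median was 0.029 (5 FPKM), 0.10 (quantile) and -0.025 (span). MKI against WT gave 1 past 2-fold (5 FPKM, span) and medians of -0.28 (quantile) and -0.28 (span). MKI against PKI gave 2 (5 FPKM, span) and a median of -0.95 without a filter, which adds Nkx2-5. The median of HOMO against PKI was -0.71 at 5 FPKM, where 5 members remain. Other heart genes past 2-fold numbered 1 in PKI against WT (pseudocount 1, 5 FPKM, equal sums) and 11 in HOMO against MKI (5 FPKM). The median over the heart and skeletal muscle microRNAs of the list, miR-206 forms included, was 97.2% of WT in MKI and 99.7% in HOMO over reads outside the domain. Over all reads it was 112% and 115%. Some of these microRNAs had few reads, such as miR-133b-5p with 5 to 10 in a column. Of single genes, Hand2 in MKI against WT passed 2-fold at -1.09 with a pseudocount of 0.1, and in HOMO against MKI Gata4 fell short at 0.97 (pseudocount 1) and 0.86 (quantile), and Hand2 at 0.92 (pseudocount 1), 0.71 (quantile) and 0.33 (span). Apart from fewer genes under a stricter filter, the cause was not tested. The depth of the mRNA columns is unknown, so the precision of low values such as those of Nkx2-5 cannot be stated.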

Other observations

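Smooth muscle genes, which mark the vessel walls that leave the heart among other sites, were read as well. Over 7 genes they summed to 102 FPKM in PKI, 65.8 FPKM in MKI, 82.7 FPKM in HOMO and 91.7 FPKM in WT. In PKI 4 of the 5 that passed the filter lay above WT, where 5380 of all 13279 genes did. In MKI none of the 5 did, where 5925 of all genes did. For HOMO the counts were 3 of the 5 and 5117 of all genes. Of the 5, 1 was past 2-fold lower in MKI, where 19.1% of all genes were. Smtn, the gene of the smooth muscle protein smoothelin, was past 2-fold lower in MKI, with 7.51 FPKM in PKI, 3.12 FPKM in MKI, 7.43 FPKM in HOMO and 6.86 FPKM in WT. Tagln, which encodes an actin-binding protein of smooth muscle, had 15.0 FPKM in PKI, 8.43 FPKM in MKI, 10.005 FPKM in HOMO and 8.92 FPKM in WT. Acta2, smooth muscle actin, which early heart muscle also makes, lay between 50.5 FPKM in MKI and 74.0 FPKM in PKI.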
